A study of Homo sapiens with 2 samples.

Results

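The MHC class II genes described here are HLA-DRA, HLA-DRB1, HLA-DPA1, HLA-DPB1, HLA-DQA1, HLA-DQB1, HLA-DMA, HLA-DMB and HLA-DOA, with CD74, which encodes their invariant chain. They were taken by gene symbol, and all 10 were among the 36601 genes of the count matrix. The cells were OVCAR5, an established human ovarian carcinoma line that carried an IFNg-sensing reporter and CFP, grown as tumours in NSG-B2m-/- mice, an immunodeficient strain that also lacks B2m. CFP+ tumour cells, which the labels call bystander cells, were sorted from a pool of 13 tumours and made into 1 droplet library with 3′ counting. IFNg or TNFa had been injected into the tumours: 10 ng/ml TNFa for 6 h in 3 tumours, both cytokines (100 ng/ml IFNg and 10 ng/ml TNFa) for 6 h in 2, and 100 ng/ml IFNg for 24 h in 2 and for 48 h in 1. The unexposed tumours numbered 2 at 6 h, 2 at 24 h and 1 at 48 h. These conditions come from the description of the pool, and the treatment fields of the gene expression and hashtag libraries each name 1 other condition for the whole library.

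Cells were stained with antibody barcodes called hashtags, and 7485 cell barcodes carried a clear pair of them. A cell was given to a hashtag pair from its 2 highest of the 8 hashtags HTO2 to HTO9 when the second had 20 counts or more and was 4 times the third or more. Cells were kept if they had at least 500 genes and no more than 20% mitochondrial UMIs (counted molecules). That left 2994 cells of 9083 barcodes in 13 hashtag pairs, with 110 to 507 cells and 765923 to 5058403 gene UMIs per pair. No barcode occurred more than once. The sources used here do not say which hashtag pair marked which tumour. The pairs were therefore described one by one, and conditions were not compared. Levels are UMIs per 1000000 gene UMIs of a pair (CPM), and values in parentheses bound an exact 95% interval, which covers counting error alone. UMIs counted at the 3′ end were not divided by gene length, so levels are set side by side between pairs and not between genes.

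MHC class II molecules are paired alpha and beta chains that carry peptides from endosomes to the cell surface, where CD4+ T cells read them. The invariant chain, CD74, fills the groove while the molecule travels to the endosome. HLA-DM, made of HLA-DMA and HLA-DMB, exchanges the last fragment of CD74 for a peptide, and HLA-DO, which contains HLA-DOA, restrains HLA-DM. Dendritic cells, B cells and macrophages make class II all the time. Many epithelial and carcinoma cells make it only when IFNg induces CIITA, a coactivator that binds no DNA itself and acts through proteins assembled on the X and Y boxes of class II promoters.

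Promoter stretches of these genes are printed because the X and Y boxes are the shared feature through which CIITA is known to act. The sequences come from RefSeq (GRCh38.p14), whose table held a window of 250 bases before to 50 bases after the start for 9 of the 10 genes. HLA-DRA is named only. HLA-DPA1 had 2 windows, of which the second is printed, and the first held neither core. Each line runs 5′ to 3′ on the gene's strand from base -130 to base -21 of the start. Capitals mark an X box core, AGCAACAGA with up to 2 mismatches, or a Y box core, ATTGG, on either strand.
HLA-DOA: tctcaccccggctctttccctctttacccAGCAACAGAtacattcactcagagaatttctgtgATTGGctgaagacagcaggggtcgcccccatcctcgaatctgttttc
HLA-DRB1: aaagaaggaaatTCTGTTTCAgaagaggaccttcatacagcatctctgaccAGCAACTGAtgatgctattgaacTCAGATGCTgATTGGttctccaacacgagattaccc
HLA-DQA1: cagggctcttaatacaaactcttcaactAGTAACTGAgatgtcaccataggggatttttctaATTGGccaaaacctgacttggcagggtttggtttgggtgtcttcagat
HLA-DQB1: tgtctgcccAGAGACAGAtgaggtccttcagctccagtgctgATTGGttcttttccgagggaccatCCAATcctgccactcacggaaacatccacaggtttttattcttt
HLA-DPA1: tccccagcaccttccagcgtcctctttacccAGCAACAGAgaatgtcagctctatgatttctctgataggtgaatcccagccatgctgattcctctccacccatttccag
HLA-DMA: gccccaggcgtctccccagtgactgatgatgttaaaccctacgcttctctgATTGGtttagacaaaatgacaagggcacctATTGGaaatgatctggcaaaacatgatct
HLA-DPB1: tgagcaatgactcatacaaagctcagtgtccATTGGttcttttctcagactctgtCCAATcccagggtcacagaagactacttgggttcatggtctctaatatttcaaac
HLA-DMB: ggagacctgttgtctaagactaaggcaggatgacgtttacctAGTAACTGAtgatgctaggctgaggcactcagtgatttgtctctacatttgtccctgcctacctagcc
CD74: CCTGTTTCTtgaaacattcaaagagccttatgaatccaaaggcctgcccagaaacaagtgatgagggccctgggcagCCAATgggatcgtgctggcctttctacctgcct

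The stretches lie at chr6:33009612-33009721 (HLA-DOA, minus strand), chr6:32589869-32589978 (HLA-DRB1, minus), chr6:32637276-32637385 (HLA-DQA1, plus) and chr6:32666678-32666787 (HLA-DQB1, minus). Those of HLA-DPA1, HLA-DMA and CD74 lie on the minus strand at chr6:33073670-33073779, chr6:32953118-32953227 and chr5:150412931-150413040. That of HLA-DPB1 lies on the plus strand at chr6:33075860-33075969, and that of HLA-DMB on the minus strand at chr6:32941049-32941158. An X box core followed on the same strand by a Y box core starting 15 to 35 bases after it was found in 4 of the 9 genes with a window, HLA-DRB1, HLA-DQA1, HLA-DQB1 and HLA-DOA. The same arrangement was found in 1.51% of all 35116 promoter windows of the table. With or without the other core, the X box core was in 58.9% of windows and the Y box core in 34.6%. Each core is thus common at this tolerance. The X box core matched without a mismatch in HLA-DOA and in the second of the 2 windows of HLA-DPA1. In HLA-DOA the Y box core began 25 bases after the X box core and in HLA-DRB1 24 bases after it. The stretches printed for HLA-DMA and HLA-DPB1 held no X box core and 2 Y box cores each, and those of HLA-DMB and HLA-DPA1 held an X box core and no Y box core. A match of letters is a description and not a binding site.

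The cells had the keratin profile of a carcinoma line. Over all cells used, KRT18 stood at 2663 CPM, KRT8 at 1407 CPM and EPCAM at 275 CPM, and 95.9% of cells had UMIs of 3 or more of the 10 epithelial markers. Markers of the cells that make class II all the time were low. None of the 8 dendritic cell markers exceeded 2 UMIs in total and 6 of them were at 0. The 8 B cell markers summed to between 2.25 and 8.94 CPM per hashtag pair, led by BANK1 with 73 UMIs, while 2 of them were at 0, and 142 cells (4.74%) had at least 1. The 10 macrophage and monocyte markers summed to between 8.76 and 36.5 CPM per hashtag pair, led by LYZ and CD14, and 413 cells (13.8%) had at least 1 of them, of which 19 cells (0.635%) had 3 or more. In the 2 pairs with the most class II RNA, HTO4+HTO9 and HTO4+HTO8, the macrophage and monocyte markers summed to 14.4 and 8.76 CPM, against a median of 22.9 CPM over the 13 pairs, and the B cell markers to 3.92 and 6.06 CPM, against a median of 4.42. The counts are of human genes, and mouse host cells are not measured in them.

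Summed over the 10 genes, class II RNA stood at 5238 CPM (5077 to 5403) in HTO4+HTO9 and at 132 CPM (113 to 153) in HTO3+HTO7, a ratio of 39.7 (34.2 to 46.4). HTO4+HTO8 followed the highest pair at 4868 CPM. HTO2+HTO8 and HTO2+HTO9 came next, at 1913 and 1356 CPM, and then HTO3+HTO6 at 885 CPM. HTO2+HTO6, HTO2+HTO7 and HTO2+HTO5 lay at 424, 386 and 332 CPM. HTO3+HTO9, HTO4+HTO6, HTO4+HTO7 and HTO3+HTO5 lay at 190, 177, 144 and 136 CPM, just above HTO3+HTO7. Of the 12 steps between neighbours in this order, all but 3 were larger than counting error. HTO3+HTO9 and HTO4+HTO6, HTO4+HTO7 and HTO3+HTO5, and HTO3+HTO5 and HTO3+HTO7 did not differ beyond it. Counting error leaves out the spread between cells, so a small step need not exceed that spread. In cells cut at random to 4000 UMIs each, the mean was 1.64 in HTO2+HTO6 and 1.67 in HTO2+HTO7, the reverse order. Under a stricter cell filter, at least 1000 genes and no more than 10% mitochondrial UMIs, the ratio was 73.7, over HTO4+HTO7 as the lowest pair. That stricter filter left 400 cells, and 12 in the smallest pair.

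**Figure D1:**
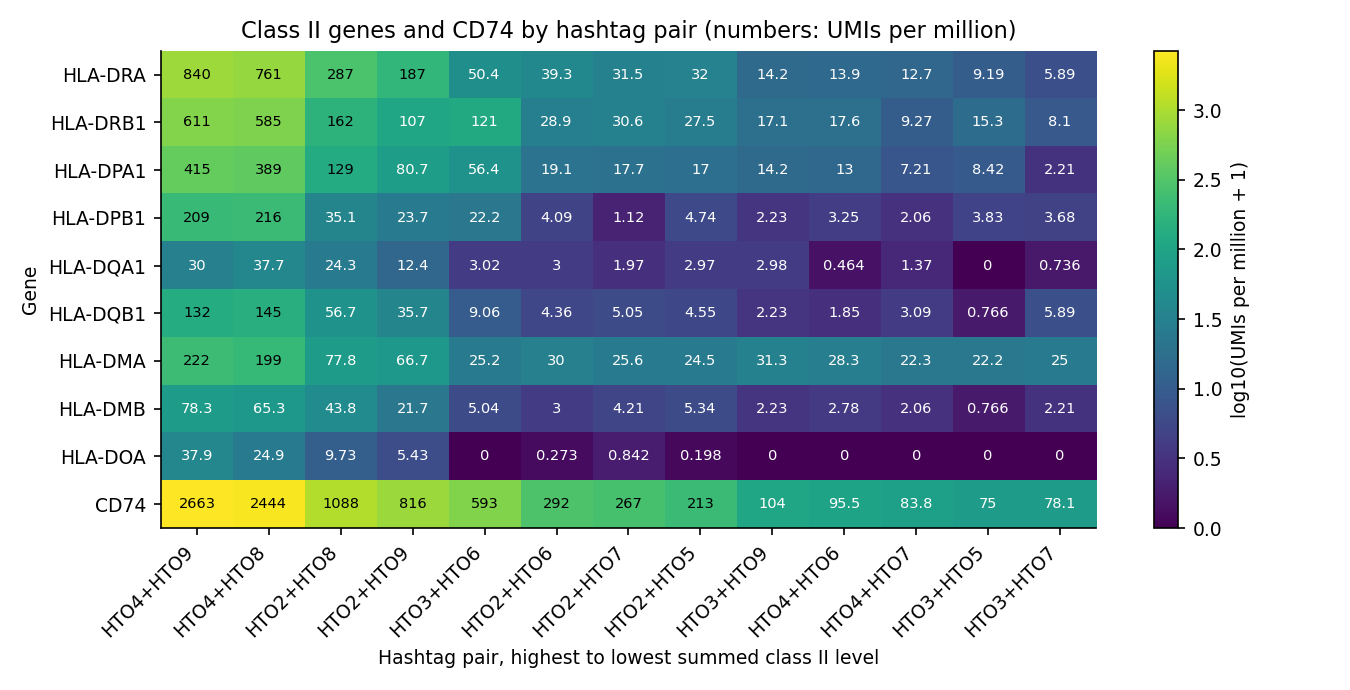
The 10 genes (rows) in the 13 hashtag pairs (columns, ordered from the highest to the lowest summed level); colour is log10(UMIs per 1000000 + 1) and the printed numbers are UMIs per 1000000. Each gene is highest in HTO4+HTO9 or HTO4+HTO8, while HLA-DMA stays between 22.2 and 31.3 CPM in the 9 columns on the right.

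In all 10 of 10 genes the highest hashtag pair was at 4 times the lowest or more. Over all 13596 genes with 30 UMIs or more the share at 4-fold or more was 21.7%. The median ratio was 88.9 over the 10 genes and 2.33 over all these genes. When the lower bound of the interval had to reach 4, 10 of 10 genes still passed, against 2.11% of all genes. Where a lowest pair had 0 UMIs it was set to 3 counts in that pair. The highest and lowest pairs were picked by these same counts, which tends to raise the ratios, and the intervals do not allow for it. The shares over all genes were computed with the same choice. The HLA genes resemble each other and some overlap on the chromosome, so a read can be shared between them and single values are less certain than the sum. Single ratios rest on 0 to 98 UMIs in the lowest pair, and under the alternative cell filters, hashtag rules, scalings, thinning and sets of pairs each of the 10 genes moved by over 1.5 times at least once. Over these alternatives the ratios of HLA-DRA ran from 77.2 to 266, of HLA-DRB1 from 32.0 to 89.7, of HLA-DPA1 from 23.4 to 291, of HLA-DPB1 from 12.7 to 243 and of CD74 from 27.8 to 65.5. Those of HLA-DQA1 ran from 6.69 to 154, of HLA-DQB1 from 21.1 to 191, of HLA-DMA from 8.92 to 26.8, of HLA-DMB from 15.03 to 105 and of HLA-DOA from 10.8 to 32.1. The size of a single ratio is thus uncertain, while none of these values was under 4.

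HLA-DRA, the alpha chain shared by all HLA-DR molecules, had 840 CPM (643 UMIs) in HTO4+HTO9, with 761 CPM in HTO4+HTO8. It had 287 CPM in HTO2+HTO8, 187 CPM in HTO2+HTO9, 50.4 CPM in HTO3+HTO6, 39.3 CPM in HTO2+HTO6, 32.0 CPM in HTO2+HTO5 and 31.5 CPM in HTO2+HTO7. The remaining values were 14.2 CPM in HTO3+HTO9, 13.9 in HTO4+HTO6, 12.7 in HTO4+HTO7, 9.19 in HTO3+HTO5 and 5.89 (8 UMIs) in HTO3+HTO7. HTO4+HTO9 was thus 142-fold (71.9 to 331) above HTO3+HTO7, and 4 pairs stood well above the other 9.

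HLA-DRB1, the main HLA-DR beta chain, had 611 CPM in HTO4+HTO9, with 585 CPM in HTO4+HTO8. It had 162 CPM in HTO2+HTO8, 107 CPM in HTO2+HTO9 and 121 CPM in HTO3+HTO6. The values in HTO2+HTO7, HTO2+HTO6 and HTO2+HTO5 were 30.6, 28.9 and 27.5 CPM. The other 5 pairs lay between 8.10 CPM (HTO3+HTO7, 11 UMIs) and 17.6 CPM (HTO4+HTO6). The ratio of HTO4+HTO9 to HTO3+HTO7 was 75.4 (41.8 to 152). HLA-DRB1 in HTO3+HTO6 did not differ from HTO2+HTO9 beyond counting error, with a ratio of 1.13 (0.903 to 1.40), where the ratio of HLA-DRA was 0.269 (0.197 to 0.361).

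HLA-DPA1, the HLA-DP alpha chain, had 415 CPM in HTO4+HTO9, 389 in HTO4+HTO8, 129 in HTO2+HTO8, 80.7 in HTO2+HTO9 and 56.4 in HTO3+HTO6. The other 8 pairs lay between 2.21 CPM (HTO3+HTO7, 3 UMIs) and 19.1 CPM (HTO2+HTO6), and the ratio of the highest to the lowest pair was 188 (63.7 to 916). Its partner HLA-DPB1, the HLA-DP beta chain, had 216 CPM in HTO4+HTO8 and 209 CPM in HTO4+HTO9, then 35.1 in HTO2+HTO8, 23.7 in HTO2+HTO9 and 22.2 in HTO3+HTO6. It was at 1.12 to 4.74 CPM in the other 8 pairs. Both HLA-DP genes therefore had the same 5 pairs on top. Their annotated spans overlap on opposite strands, and the sources used here do not say whether the counting used strand.

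HLA-DQA1 and HLA-DQB1 encode the HLA-DQ chains. HLA-DQA1 had 37.7 CPM in HTO4+HTO8 (56 UMIs), 30.03 in HTO4+HTO9, 24.3 in HTO2+HTO8 and 12.4 in HTO2+HTO9, and at most 3.02 CPM in the other 9 pairs. It had 0 UMIs in HTO3+HTO5, and with that pair set to 3 counts HTO4+HTO8 was 16.4-fold (5.34 to 82.0) higher. HLA-DQB1 had 145 CPM in HTO4+HTO8, 132 in HTO4+HTO9, 56.7 in HTO2+HTO8 and 35.7 in HTO2+HTO9, and between 0.766 (1 UMI) and 9.06 CPM in the others. HLA-DQA1 was the member whose level differed least between HTO4+HTO9 and HTO2+HTO8, with a ratio of 1.23 (0.713 to 2.08), which includes 1. In HTO4+HTO8 against HTO2+HTO8 it was 1.55 (1.03 to 2.35).

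HLA-DMA, one chain of the peptide editor HLA-DM, had 222 CPM in HTO4+HTO9, 199 in HTO4+HTO8, 77.8 in HTO2+HTO8 and 66.7 in HTO2+HTO9. In the other 9 pairs it lay between 22.2 CPM (HTO3+HTO5, 29 UMIs) and 31.3 CPM (HTO3+HTO9, 42 UMIs). Its ratio of highest to lowest pair, 10.00 (6.71 to 15.4), was the smallest of the 10 genes with the cells used here. This place was lost under the stricter cell filter, where HLA-DMA had 26.8 and 6 genes had less, and with thinning to 4000 UMIs, where HLA-DMA had 11.3 and HLA-DQA1 6.69. Its partner HLA-DMB had 78.3 CPM in HTO4+HTO9, 65.3 in HTO4+HTO8, 43.8 in HTO2+HTO8 and 21.7 in HTO2+HTO9, and 0.766 to 5.34 CPM in the other 9 pairs. The UMI ratio of HLA-DMA to HLA-DMB was 2.83 (2.099 to 3.87) in HTO4+HTO9 and 3.04 (2.41 to 3.87) in HTO4+HTO8, against 10.8 (4.72 to 30.6) in HTO4+HTO7 and 10.2 (4.41 to 28.8) in HTO4+HTO6. The annotated span of HLA-DMA overlaps the start of BRD2 on the other strand. BRD2 itself lay between 60.3 and 80.9 CPM in the 13 pairs, a ratio of 1.34, and a part of its reads in the HLA-DMA counts was not tested.

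HLA-DOA, a chain of the HLA-DM inhibitor HLA-DO, was the rarest member, with 103 UMIs in all. Of these, 29 UMIs were in HTO4+HTO9 (37.9 CPM), 37 in HTO4+HTO8 (24.9 CPM), 18 in HTO2+HTO8 (9.73 CPM) and 14 in HTO2+HTO9 (5.43 CPM). HTO2+HTO7 had 3 UMIs, HTO2+HTO6 and HTO2+HTO5 had 1 each, and the other 6 pairs had none. With HTO3+HTO5, one of the pairs with none, set to 3 counts, HTO4+HTO9 was 16.5-fold (5.11 to 84.6) higher. In HTO3+HTO6, the pair after these 4 in the order of the sum, 0 UMIs of HLA-DOA allow a level of up to 3.02 CPM (3 counts). Its partner HLA-DOB followed another order, with 14.6 CPM (27 UMIs) in HTO2+HTO8, 13.1 in HTO4+HTO9, 10.8 in HTO4+HTO8 and 8.92 in HTO2+HTO9. The ratio of HTO4+HTO9 to HTO2+HTO8 was 3.89 (2.09 to 7.44) for HLA-DOA and 0.895 (0.386 to 1.91) for HLA-DOB.

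CD74 had 2663 CPM in HTO4+HTO9, 2444 in HTO4+HTO8, 1088 in HTO2+HTO8, 816 in HTO2+HTO9 and 593 in HTO3+HTO6. It had 292, 267 and 213 CPM in HTO2+HTO6, HTO2+HTO7 and HTO2+HTO5, and 75.0 to 104 CPM in the other 5 pairs. The ratio of HTO4+HTO9 to HTO3+HTO5 was 35.5 (28.98 to 43.9). CD74 held 14267 of the 25173 UMIs of the 10 genes, and without it the ratio of the highest to the lowest pair of the sum was 47.9.

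The make-up of class II RNA was not the same in all pairs. CD74 made up 50.8% (49.3 to 52.4) of the UMIs of the 10 genes in HTO4+HTO9 and 50.2% (49.0 to 51.4) in HTO4+HTO8, against 68.9% (66.5 to 71.2) in HTO2+HTO6 and 67.0% (63.8 to 70.1) in HTO3+HTO6. Its highest share was 69.3% (66.8 to 71.7) in HTO2+HTO7. From HTO3+HTO9 down in the order of the sum, it lay between 54.1% (48.9 to 59.2, HTO4+HTO6) and 59.2% (51.6 to 66.5, HTO3+HTO7). The CD74 share thus did not rise steadily as class II RNA fell. HLA-DRA made up 16.03% (14.9 to 17.2) in HTO4+HTO9 and 4.47% (1.95 to 8.62) in HTO3+HTO7. HLA-DMA made up 4.24% (3.64 to 4.91) in HTO4+HTO9 and 19.0% (13.5 to 25.5) in HTO3+HTO7. The intervals of both shares were apart between HTO4+HTO9 and HTO3+HTO7. The part of free RNA from other cells of the library in the low values was not tested.

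**Figure D2:**
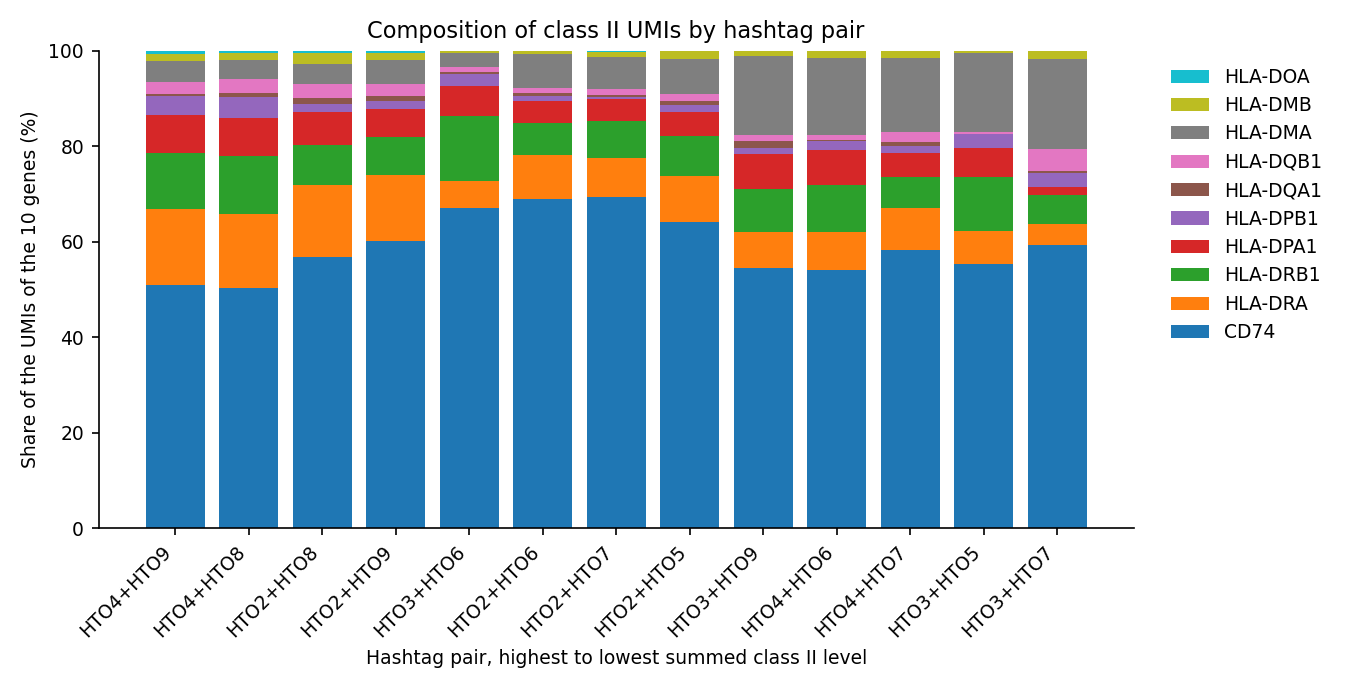
Share of each gene in the UMIs of the 10 genes (vertical axis, percent) in the 13 hashtag pairs, ordered from the highest to the lowest summed level. CD74 takes 50.8% in HTO4+HTO9, 68.9% in HTO2+HTO6 and 59.2% in HTO3+HTO7. The HLA-DMA segment is widest in the 5 lowest pairs, with 19.0% in HTO3+HTO7.

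The HLA-DP chains differed between the 4 highest pairs in their ratio to each other. There were 1.99 (1.64 to 2.42) HLA-DPA1 UMIs for each HLA-DPB1 UMI in HTO4+HTO9 and 1.80 (1.57 to 2.07) in HTO4+HTO8, against 3.66 (2.77 to 4.89) in HTO2+HTO8 and 3.41 (2.55 to 4.61) in HTO2+HTO9. HLA-DPB1 was also the member that stood highest in HTO4+HTO9 relative to HTO2+HTO8, at 5.95-fold (4.43 to 8.06), beside 2.45-fold (2.30 to 2.60) for CD74 and 1.79-fold (1.26 to 2.53) for HLA-DMB. The 2 pairs with HTO4 were close to each other: of the 10 genes, CD74 alone differed between HTO4+HTO9 and HTO4+HTO8 beyond counting error, at 1.09-fold (1.03 to 1.15).

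The genes differed in how far HTO3+HTO6 stood above the lowest pair. Relative to HTO3+HTO7 it was 25.5-fold (8.30 to 128) higher for HLA-DPA1, 14.9-fold (8.05 to 30.7) for HLA-DRB1, 8.55-fold (4.02 to 20.9) for HLA-DRA and 7.60-fold (6.17 to 9.44) for CD74. HLA-DMA, at 25.2 CPM, had a ratio of 1.01 (0.575 to 1.74) between the same pairs. HTO3+HTO6 had 2.40 (1.71 to 3.41) HLA-DRB1 UMIs for each HLA-DRA UMI, while HTO4+HTO9 had 0.728 (0.645 to 0.821) and HTO2+HTO8 had 0.565 (0.489 to 0.652). In HTO3+HTO5 and HTO3+HTO7, with few UMIs of both genes, this ratio was 1.67 (0.776 to 3.74) and 1.38 (0.504 to 3.94), and the intervals of these, of HTO3+HTO9 and of HTO4+HTO6 overlap that of HTO3+HTO6. It had 11.8 (8.82 to 16.1) CD74 UMIs for each HLA-DRA UMI, against 3.17 (2.90 to 3.47) in HTO4+HTO9, while the 8 pairs below it in the sum ran from 6.59 (4.65 to 9.59) in HTO4+HTO7 to 13.25 (6.49 to 31.5) in HTO3+HTO7. HTO3+HTO6 was also the pair in which the smallest share of barcodes passed the cell filter, 24.3%. The other pairs with HTO3 were close to it, with 28.3% in HTO3+HTO7, 30.1% in HTO3+HTO9 and 32.8% in HTO3+HTO5. The highest share was 58.2%, in HTO4+HTO7. The summed macrophage and monocyte markers of HTO3+HTO6 were at 36.3 CPM, beside 36.5 CPM in HTO2+HTO9, the highest pair for them. Its 4 pan-leukocyte markers were at 18.1 CPM, the highest pan-leukocyte level of the 13 pairs. Over all cells used, LAPTM5 (179 UMIs) and CORO1A (114) led the pan-leukocyte list, while PTPRC had 10 UMIs and CD53 had 0. No cell had UMIs of 3 or more of these 4. The class II level of HTO3+HTO6 was 910 CPM without its 4 cells that had UMIs of 2 or more macrophage, dendritic or B cell markers, beside 885 CPM with them. The part of cells with 1 such marker or with pan-leukocyte markers in its class II values was not tested.

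Cell by cell, the 2 highest pairs were positive almost throughout. Cells were thinned to 4000 UMIs each so that depth was equal, which left out 186 shallower cells and kept 2808. A UMI of any of the 10 genes was present in 90 of 90 thinned cells of HTO4+HTO9 (96.0 to 100%), in 99.4% of HTO4+HTO8, in 96.6% of HTO2+HTO8 and in 88.8% of HTO2+HTO9. HTO3+HTO6 had 76.2% (66.9 to 84.0), HTO2+HTO6 60.9%, HTO2+HTO7 59.0% and HTO2+HTO5 54.1%. The other 5 pairs had between 34.1% (26.0 to 43.0, HTO3+HTO5) and 40.1% (32.0 to 48.7, HTO3+HTO9). Without thinning the shares ran from 100% in HTO4+HTO9 to 52.5% in HTO3+HTO7. No cell type known to lack these genes was in the library, so the share that free RNA alone gives was not measured.

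For HLA-DRA alone, the thinned share was 85.6% (76.6 to 92.1) in HTO4+HTO9, 77.2% in HTO4+HTO8, 53.6% in HTO2+HTO8, 37.8% in HTO2+HTO9 and 15.2% in HTO3+HTO6. It was 11.0% in HTO2+HTO6 and 2.22% (0.461 to 6.36) in HTO3+HTO7. HLA-DMA was found in 62.2% of thinned cells of HTO4+HTO9 and in 51.5% of HTO4+HTO8, but in 8.57% (3.99 to 15.6) of HTO3+HTO6 and 11.1% (6.35 to 17.7) of HTO3+HTO7. HTO3+HTO6 and HTO3+HTO7 thus overlapped in HLA-DMA while their shares of cells with HLA-DRB1, 28.6% (20.2 to 38.2) and 2.96% (0.813 to 7.41), did not.

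The median thinned cell held 21.5 class II UMIs in HTO4+HTO9, 18 in HTO4+HTO8, 7 in HTO2+HTO8, 5 in HTO2+HTO9 and 2 in HTO3+HTO6. It held 1 in HTO2+HTO6, HTO2+HTO7 and HTO2+HTO5, and 0 in the other 5 pairs. Of the thinned cells of HTO4+HTO9, 82.2% had 10 class II UMIs or more, against 31.3% in HTO2+HTO8, 10.5% (11 cells) in HTO3+HTO6 and 2.90% in HTO2+HTO6. The top 10% of cells held 46.3% of the class II UMIs in HTO3+HTO6, 19.9% in HTO4+HTO9 and 23.4% in HTO2+HTO8. In the 8 lower pairs, where most cells have few UMIs, the top 10% held 45.2 to 53.5%. The variance of class II UMIs over their mean, which is 1 for counting alone, was 8.55 in HTO4+HTO8, 6.49 in HTO3+HTO6, 6.03 in HTO4+HTO9 and 3.13 in HTO2+HTO8, and 1.55 in HTO3+HTO7. The other pairs with HTO2 ran from 3.56 in HTO2+HTO5 to 3.86 in HTO2+HTO9. At equal relative spread this measure grows with the mean, which was 21.7 UMIs in HTO4+HTO9, 3.44 in HTO3+HTO6 and 0.615 in HTO3+HTO7. Its values therefore do not order the pairs by spread between cells.

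**Figure D3:**
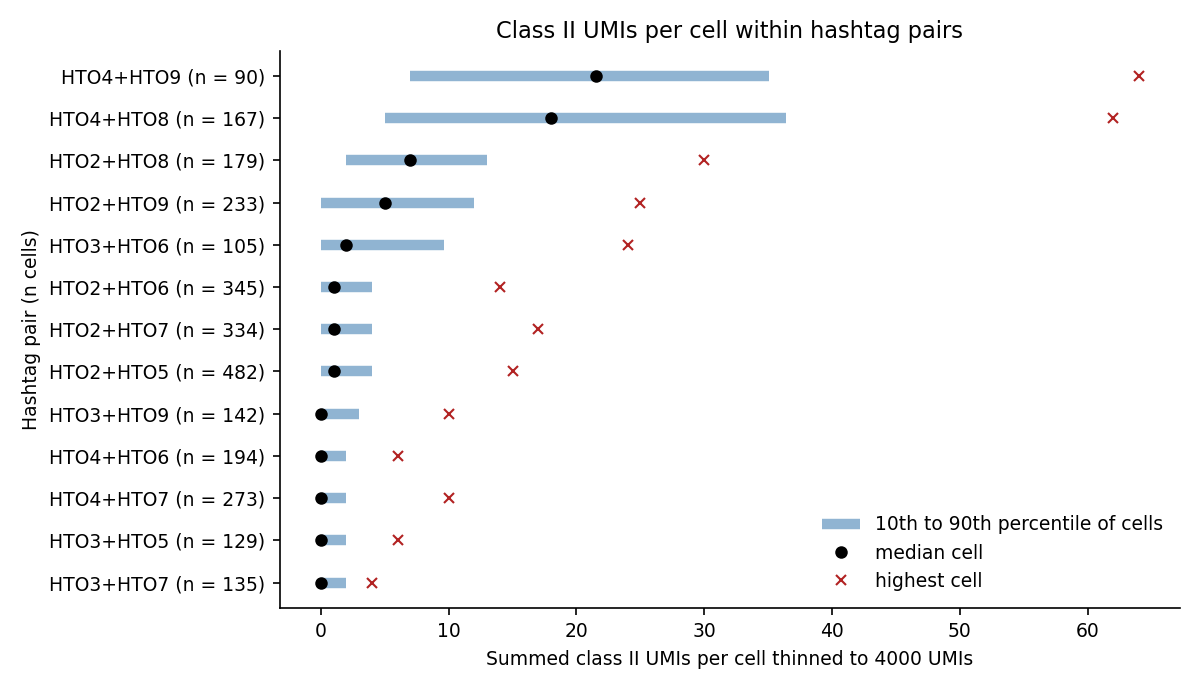
Summed class II UMIs per cell thinned to 4000 UMIs (horizontal axis) in each hashtag pair (vertical axis, with the number of thinned cells); bars span the 10th to 90th percentile of cells, dots are median cells and crosses the highest cell. Median cells fall stepwise, with 21.5 UMIs in HTO4+HTO9 and 0 in the 5 lowest pairs, and the bar of HTO3+HTO6 reaches 9.6 beside a median of 2.

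Within hashtag pairs, members varied together from cell to cell to different degrees. Pearson's r of log1p counts per 10000 was computed over the cells of each pair with 10 UMIs or more of both genes and averaged over pairs, and it describes cells that share 1 library and differ in depth. Over the 45 combinations of 2 members the mean r was 0.229. HLA-DRB1 with CD74 had the highest, at 0.445, followed by HLA-DRA with CD74 at 0.429 and HLA-DRA with HLA-DRB1 at 0.423. HLA-DPA1 with HLA-DPB1 had 0.341. The partners HLA-DMA with HLA-DMB had 0.165 and HLA-DQA1 with HLA-DQB1 0.143, no more than most combinations of genes that do not form a heterodimer. Sparse counts lower r, and the HLA-DQ, HLA-DMB and HLA-DOA genes had the fewest UMIs. HLA-DMA had 1362 UMIs, and its r was 0.148 with HLA-DRA over 12 hashtag pairs and 0.181 with CD74 over 13. The means cover between 4 and 13 hashtag pairs, so they do not rest on the same cells, and the part of sparse counts in their order was not tested. In HTO4+HTO8, where counts were high, HLA-DRA with HLA-DRB1 reached 0.734 and HLA-DMA with HLA-DRA 0.301.

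**Figure D4:**
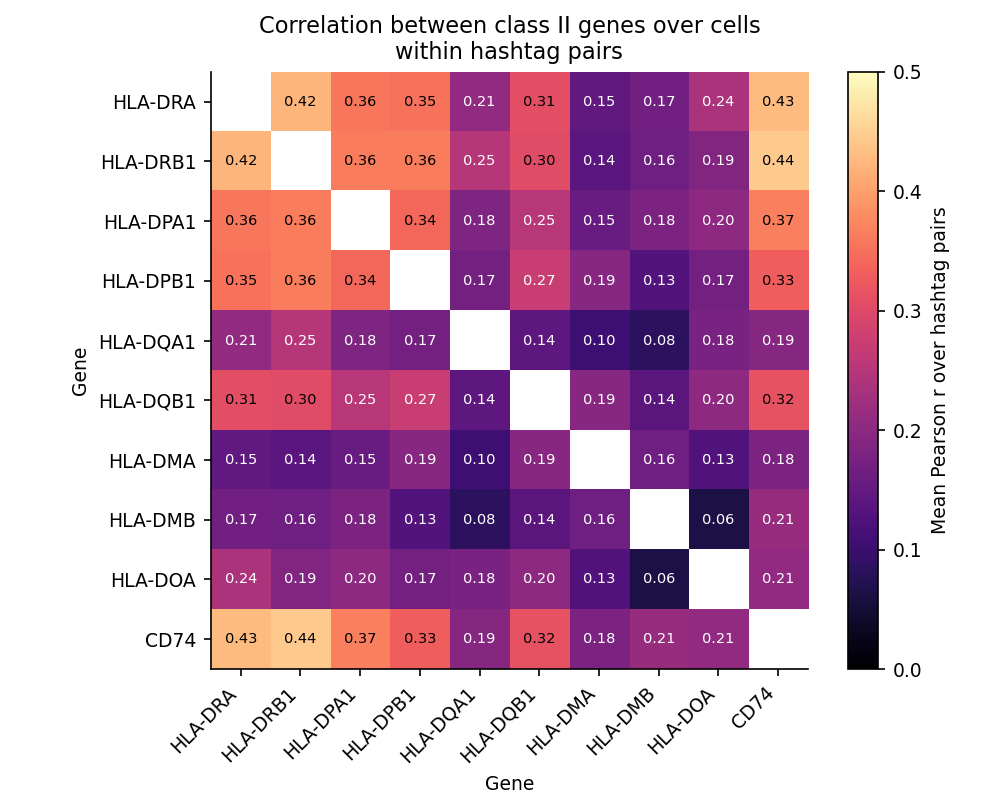
Mean Pearson r between the 10 genes over cells within hashtag pairs (colour and printed number), each cell of the grid being 1 combination of 2 genes. HLA-DRA, HLA-DRB1, HLA-DPA1, HLA-DPB1 and CD74 form the brightest block, with 0.445 for HLA-DRB1 with CD74, and the HLA-DMA row stays below 0.2.

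CIITA, the class II coactivator, was expressed in the same 4 pairs but in another order. It had 44.4 CPM (34 UMIs; 30.7 to 62.0) in HTO4+HTO9, with 35.02 CPM (26.2 to 45.9) in HTO4+HTO8, against 105 CPM (195 UMIs; 91.1 to 121) in HTO2+HTO8 and 68.7 CPM (58.9 to 79.6) in HTO2+HTO9. All other pairs had at most 6.04 CPM. HTO3+HTO5 had 0 UMIs, and with that pair set to 3 counts HTO2+HTO8 was 45.9-fold (15.5 to 224) higher. HTO4+HTO9 stood at 0.421 (0.284 to 0.609) of the CIITA level of HTO2+HTO8 and at 2.74 times (2.62 to 2.87) its class II level. There were 118 class II UMIs for each CIITA UMI in HTO4+HTO9 and 139 in HTO4+HTO8, but 18.2 in HTO2+HTO8 and 19.8 in HTO2+HTO9. HTO3+HTO6 had 6 CIITA UMIs, 6.04 CPM (2.22 to 13.2), beside its 885 CPM of class II, and HTO2+HTO7 had 5.90 CPM (3.65 to 9.01) beside 386 CPM. The thinned cells were also split by whether they had a CIITA UMI before thinning. Depth was thus equal for their class II UMIs but not for this split, and the part of depth in the medians was not tested. In HTO4+HTO8 the median was 25 class II UMIs in the 34 cells with a CIITA UMI and 16 in the 133 without one. In HTO4+HTO9 it was 23.5 in the 24 cells with a CIITA UMI and 20 in the 66 without. In HTO2+HTO8 it was 8 in the 95 cells with a CIITA UMI and 7 in the 84 without. In HTO2+HTO9 it was 6.5 in the 102 cells with a CIITA UMI and 4 in the 131 without.

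**Figure D5:**
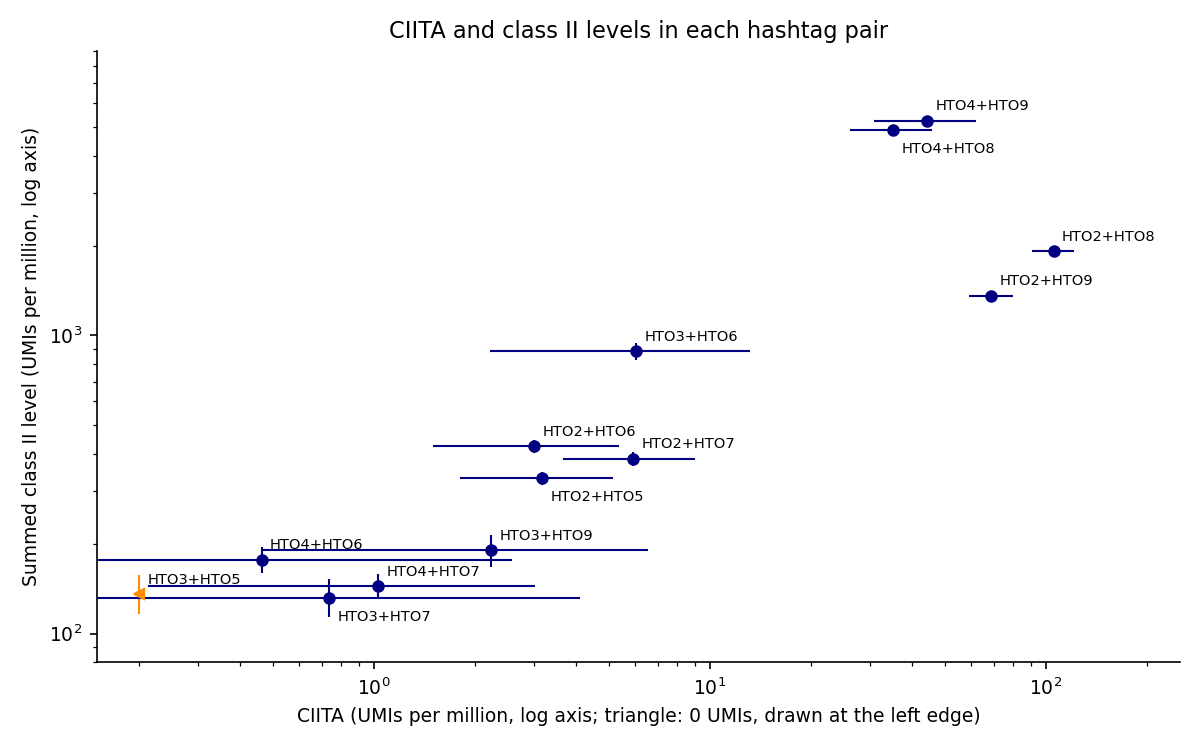
CIITA (horizontal, UMIs per 1000000, log axis) and the summed class II level (vertical, UMIs per 1000000, log axis) in each hashtag pair, with exact 95% counting intervals; the triangle at the left edge is HTO3+HTO5, with 0 CIITA UMIs. HTO2+HTO8 and HTO2+HTO9 lie to the right of and below HTO4+HTO9 and HTO4+HTO8, at 105 and 68.7 against 44.4 and 35.02 CPM of CIITA.

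The other genes of the pathway were counted from a list of 30, of which 27 had 30 UMIs or more and 15 differed 4-fold or more between pairs, beside the 21.7% of all genes. Of the 10 transactivation genes 3 did so, CIITA, RFXAP and KAT2B. RFXAP and KAT2B had 140 and 106 UMIs in all, and the intervals of their ratios began at 1.34 and 1.05. RFX5, a subunit of the complex that binds the X box, had 21.1 CPM in HTO2+HTO8 and 6.63 CPM in HTO3+HTO7, a ratio of 3.18 (1.52 to 7.47). RFXANK, NFYA, NFYB, NFYC, CREB1 and CREBBP, the other factors of this list, had ratios of 1.60 to 3.08.

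The 4 other class II genes all passed 4-fold, beside the 21.7% of all genes. HLA-DRB5, a second HLA-DR beta chain gene, had 47.1 CPM in HTO4+HTO8 and 39.2 in HTO4+HTO9, against 12.97 in HTO2+HTO8, and 0 UMIs in HTO3+HTO5. HLA-DQA2 had 44.5 CPM in HTO4+HTO8 and 0.343 CPM (1 UMI) in HTO4+HTO7. HLA-DQB2 had 38 UMIs in all and HLA-DOB 97. Their lowest pairs had 0 UMIs and were set to 3 counts. Their ratios were 10.4 (2.86 to 56.9) and 4.83 (1.49 to 24.9), so neither interval began at 4 or more. HLA-DRB5, HLA-DQA2 and HLA-DQB2 are close copies of members, so their counts may hold reads of those genes.

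Of the 8 genes that break down the invariant chain and antigens, 4 passed 4-fold, beside the 21.7% of all genes. They did not share one order. CTSS, the cathepsin that trims the invariant chain in antigen-presenting cells, had 69.2 CPM in HTO4+HTO9 and 57.3 in HTO4+HTO8, against 116 in HTO2+HTO8 and 81.1 in HTO2+HTO9, and 3.71 CPM in HTO4+HTO6. CTSL, the cathepsin that does so in thymic epithelium of mice, had the opposite order, with 349 CPM in HTO4+HTO9 and 423 in HTO4+HTO8, against 105 in HTO2+HTO8 and 149 in HTO2+HTO9. It lay between 71.4 and 100 CPM in the other 9 pairs. The ratio of HTO4+HTO9 to HTO2+HTO8 was 0.598 (0.434 to 0.812) for CTSS and 3.31 (2.74 to 3.999) for CTSL, so these cathepsins split the 4 highest pairs in opposite ways. IFI30, the thiol reductase of the endosome, had 162 CPM in HTO4+HTO9, 166 in HTO4+HTO8, 179 in HTO2+HTO8 and 130 in HTO2+HTO9, and 23.8 to 43.5 CPM elsewhere. CTSV had 179 UMIs in all, and its interval began at 1.07. LGMN, the asparaginyl endopeptidase of the endosome, was at 157 CPM in HTO4+HTO9 and at 39.3 CPM in HTO2+HTO6. Its ratio, 3.99 (3.11 to 5.12), fell just short of 4.

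Of the 8 genes of surface turnover and co-stimulation, 5 had enough UMIs and 4 of these passed, beside the 21.7% of all genes. CD86 had 0 UMIs and CD80 had 3 in all cells used, so the 2 main co-stimulatory ligands of professional antigen-presenting cells were at or near 0 beside the class II genes. CD40 had 54.8 CPM in HTO4+HTO9 and 53.2 in HTO4+HTO8, against 114 in HTO2+HTO8, and its lowest level was 14.0 CPM in HTO3+HTO7. ICAM1, an adhesion molecule, had 212 CPM in HTO4+HTO9 and 146 in HTO4+HTO8, against 1261 in HTO2+HTO9, 987 in HTO2+HTO8, 903 in HTO2+HTO6 and 882 in HTO2+HTO7. HTO2+HTO6 and HTO2+HTO7, high in ICAM1, had 424 and 386 CPM of class II. CD274, which encodes PD-L1, had 40.5 CPM in HTO4+HTO9 and 37.0 in HTO4+HTO8, 60.5 in HTO2+HTO9 and 57.3 in HTO2+HTO8, and at most 5.34 CPM elsewhere. CD58, another adhesion ligand, ran the other way, with 9.14 CPM in HTO4+HTO9 and 41.0 CPM in HTO3+HTO9. Its ratio was 4.48 (2.04 to 11.7), an interval that began under 4.

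The genes most like the summed class II level over the 13 hashtag pairs were ranked by Pearson's r on log2(CPM + 1) among 11077 genes with 100 UMIs or more. The points share 1 library, so r is a description, and its median over all genes was -0.21. HLA-E had the highest r, 0.986, and stood at 1186 CPM in HTO4+HTO9, 781 in HTO2+HTO8 and 437 in HTO3+HTO6, with 153 CPM in HTO3+HTO5. C1R, PSMB9, PSMB8, HLA-DRB5, HLA-F, HLA-DQA2, ERAP1, B2M and GUK1 followed, with r between 0.961 and 0.975. CIITA had an r of 0.905 and ranked 61. B2M had 8562 CPM in HTO4+HTO9, its highest pair, against 2823 CPM in HTO3+HTO9, its lowest. Over cells within pairs the list was led by HLA-B (mean r 0.448) and also held HLA-C, B2M, PSMB9, SAA1, NNMT, IFITM3, CFB and SAA2 (0.293). PSMB9 and B2M were the 2 genes that both lists of 10 held.

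The 9 HLA members lie within 647 kb of chromosome 6, at 32439842 to 33087201 in GRCh38 (GENCODE 29), with HLA-DRA at one end and HLA-DPB1 at the other, and CD74 lies on chromosome 5 at 150401637 to 150412929. The span holds 18 protein-coding genes, 9 of them members. Of the other 9, 8 differed 4-fold or more between pairs, beside the 21.7% of all genes, and the exception was BRD2. TAP1, a subunit of the peptide transporter of class I, lies between HLA-DOB and HLA-DMB. It had 338 CPM in HTO4+HTO9, against 538 CPM in HTO2+HTO8, so it was highest in HTO2+HTO8, as was HLA-DOB, and not in HTO4+HTO9, as was HLA-DMB. PSMB8 and PSMB9, immunoproteasome subunits beside it, had 981 and 1658 CPM in HTO4+HTO9, against 909 and 1358 CPM in HTO2+HTO8. Between the same pairs HLA-DRA was 2.93-fold (2.60 to 3.29) and HLA-DMA 2.85-fold (2.27 to 3.59) higher in HTO4+HTO9.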

How the data were processed

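The authors deposited 1 matrix of UMI counts, whole numbers with no normalisation, for 36601 genes and 10 hashtags over 9083 barcodes. Per the file headers its software was Cell Ranger 5.0.1; Cell Ranger 2.1.1 and the build GRCh38 are named in the submitters' processing notes. The sources used here give neither the gene annotation nor any use of strand. Gene coordinates come from GENCODE 29, joined by gene identifier, and promoters from RefSeq (GRCh38.p14).

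The members and gene lists were chosen with earlier results of these data known. The pathway list held 30 genes, and the named genes were the members, the pathway genes past 4-fold, CIITA and HLA-DOB, and the 10 genes most like the members over pairs and over cells; other genes were named after their values were seen.

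Cells needed 500 genes, at most 20% mitochondrial UMIs and a hashtag pair; 617 of 3611 passing barcodes met no pair and were left out. No doublet caller was run; multiplets within a pair, or of different pairs with unequal hashtag counts, can remain. The cells used had a median of 8646 UMIs and 2842 genes. Counts were summed per pair as UMIs per 1000000. Intervals were exact Poisson (levels), conditional binomial (ratios) and Clopper-Pearson (shares), at 95%. A pair at 0 was set to 3 counts for a ratio. With 1 library and pairs not mapped to tumours, no test was run. Correlations used log1p counts per 10000 within pairs. Thinning drew 4000 UMIs per cell at random. Promoters were searched for AGCAACAGA with up to 2 mismatches and for ATTGG, on both strands. The calls and the likeness ranking were tried on simulated data. Changes were simulated only in genes with many UMIs, so finding a change in sparse genes was not tested. The tools were scipy 1.17.1, numpy 2.4.6 and pandas 2.3.3 in Python 3.11.15, with figures from matplotlib 3.10.9. Alternatives were stricter and looser cell filters, hashtag rules, denominators, thinning, count minimums, Spearman correlation and leaving out CD74, the highest pair or cells with leukocyte markers. Leaving out HTO3+HTO6 was added after seeing the data. Columns of other samples numbered 0. Results for some genes are not reported here.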

Additional observations from a re-analysis of the deposited data

Results flagged for a closer look

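Class II UMIs were also counted in barcodes that the report did not use. The 617 barcodes that passed the cell filter but met no hashtag pair had 920 UMIs per 1000000 (897 to 944) of the 10 genes. The 4491 barcodes of the 13 hashtag pairs that failed the cell filter had 787 UMIs per 1000000 (776 to 799). Taken pair by pair, these failed barcodes gave the same first 8 places as the cells used, with 3726 UMIs per 1000000 in HTO4+HTO9 and 747 in HTO3+HTO6, and in the 5 lowest pairs the order differed. The highest of those 5 was HTO4+HTO7, at 235 UMIs per 1000000 in its failed barcodes beside 144 in its cells.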

How the results depend on the processing

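The summed ratio of highest to lowest pair, 39.7, became 73.7 with the stricter cell filter, 32.9 with no mitochondrial maximum, 32.2 with a maximum of 50% and 47.9 without CD74; under the other alternatives it lay between 36.9 (without the highest pair) and 41.7. Under the stricter filter 8 of 10 genes were counted past 4-fold, since the other 2 fell under 30 UMIs, and every other alternative left 10. The share of all genes past 4-fold was 18.2% at 100 UMIs or more and 13.1% at 1 UMI or more. The mean correlation was 0.409 with the stricter filter and 0.436 over pooled cells, where differences between pairs enter it. The share of HTO3+HTO7 cells with a UMI was 22.5% when thinned to 2000 UMIs. Of 90 single-gene ratios over 9 alternatives, 76 stayed within the interval of the main value, 14 did not, and all were at 4 or more (6.69 to 291). Of the 10 genes most alike over pairs, 8 remained with 300 UMIs or more. No paired analysis was possible because the result comes from no test and the hashtag pairs carry no replicate number. Depth limits the low values: in the pairs with the least class II RNA, 7 of the 10 genes had under 10 UMIs in at least 1 pair, and intervals cover counting error only.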
